A study of Homo sapiens with 6 samples.

Results

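The keratins and other intermediate filament genes were examined in RH36 cells, an embryonal rhabdomyosarcoma line that lacks the PAX3/FOXO1 translocation. Members were taken by gene name: every array probe named for a numbered keratin gene, together with those named VIM, NES, SYNM, LMNA, LMNB1 or LMNB2. This gave 68 probes for 57 gene names, of 30484 gene names on the array. There were 52 keratins on 61 probes, and VIM, NES, LMNA, LMNB1 and LMNB2 on 7 probes. No probe carried the name SYNM. The group was chosen by detection on the arrays and by the pre-miR-27a against pre-control difference, and KRT38 was singled out on that difference, so the members' differences are a description. Where limma's calls for members are given, they come from the contrast that chose the members and support nothing.

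The 6 arrays were 1-colour expression arrays with 60-base probes. Cells of 1 group (pre-control, n = 3) received a negative control precursor, and cells of the other (pre-miR-27a, n = 3) received a precursor of miR-27a, a synthetic RNA that raises the level of the mature miRNA. The labels give 10 nM of precursor, a check of overexpression at 24 h, and 48 h after transfection for the pre-miR-27a arrays. They give no time for the pre-control arrays, and the methods of the study describe another concentration and transfection reagent. All arrays came from this single cell line, and the samples are labelled as biological replicates. The precursor's mature product is shown because it is the agent that separates the groups, with the seed (bases 2 to 8) in capitals. It is the RefSeq sequence (GRCh38.p14) at chr19:13836447-13836467, minus strand.
hsa-miR-27a-3p: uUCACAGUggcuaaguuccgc

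Each group was hybridised on a slide of its own, and the effects of slide and precursor cannot be told apart in any difference given here. Local background, as the median over spots, lay between 74.5 and 76.0 units on the pre-control arrays and between 52.5 and 53.0 on the pre-miR-27a arrays. Between 1559 and 1750 of the 43376 spots were not found on the pre-control arrays, against 3487 to 4153 on the pre-miR-27a arrays. The share of spots well above background was 69.9% to 73.9% and 74.1% to 78.0%. No spot was saturated. The number of arrays limits the precision, and the part of the slides in the differences was not tested.

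Intermediate filaments are rope-like polymers of rod-shaped proteins that give cells and nuclei mechanical strength. A keratin filament is built from pairs of an acidic type I and a basic type II keratin. Type I genes, apart from KRT18, lie in a cluster on chromosome 17, and type II genes with KRT18 lie on chromosome 12. Simple epithelia use KRT8 with KRT18, stratified epithelia use other pairs, and the hair shaft is made of hair keratins embedded in keratin associated proteins. Muscle and mesenchymal cells are usually built around vimentin, desmin, nestin and synemin instead, and lamins line the inner nuclear membrane of nearly all cells.

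The core promoters of a few members are shown because the type I hair keratins, the class that holds KRT38, mostly hold a sequence feature that the choice of members did not use. The RefSeq promoters (GRCh38.p14) were searched for TATAAA on both strands in the 30 bases from position -40 to -11 of the transcription start, and the match is in capitals. The motif is the core of the TATA box.
KRT38: caggatggggTATAAAagggctgggaggag
KRT37: caggatggggTATAAAagggttgggaggag
KRT31: ctgcagtgggaTATAAAtgctccctagagg
VIM: ggactctgcaagaaaaaccttcccggtgca
These windows lie at chr17:41440994-41441023, chr17:41424596-41424625 and chr17:41397619-41397648 on the minus strand for the 3 keratins. The vimentin window is at chr10:17228201-17228230 on the plus strand. On the gene's own strand, the motif was in the window of 8 of the 10 type I hair keratins, all but KRT32 and KRT36. On that strand it was in 809 of 27305 genes (2.96%) with a window, and 272 genes had it on the opposite strand. It was also in 3 of 4 type I inner root sheath keratins, in KRT10 and KRT24, and so in 13 of the 19 type I keratins with a window, and is not particular to the hair class. Of the 5 genes of vimentin, nestin and the lamins, 0 had it in any window. All member matches were on the gene's own strand. KRT38 and its neighbour KRT37 shared 29 of the 30 bases and 236 of 300 over the whole promoter, while KRT38 and each of the other type I hair keratins apart from KRT40, which was not compared, shared 8 to 14 of 30. A match is a description of these letters only. Only 32 of the 52 keratins had a window, so a share over all keratins was void.

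Without the miR-27a precursor, the RNA of the mesenchymal filaments and lamins was measured on every array, and most keratin probes were dim. All 7 probes of VIM, NES, LMNA, LMNB1 and LMNB2 were well above background on all 6 arrays, whereas 19 of 61 keratin probes were so on all 3 pre-control arrays. This gave 26 of 68 member probes on the pre-control arrays, against 68.3% of the 41000 probes of the array. On all 6 arrays it was 24 member probes, against 68.0% of all probes. A further 27 member probes, all of them keratins, were well above background on no array. Values below are normalized signals on the log2 scale, and levels of different probes were not compared.

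Vimentin (VIM), the main filament of mesenchymal cells, gave 17.23, 17.06 and 17.23 in pre-control and 17.36, 17.26 and 17.17 in pre-miR-27a on its brighter probe. Nestin (NES), a filament protein of progenitor and muscle precursor cells, gave 16.24, 16.15 and 16.37 against 16.33, 16.15 and 16.26. For both genes the groups overlapped, with differences (pre-miR-27a minus pre-control) of 0.09 ± 0.09 (SE, n = 3 and 3) and -0.01 ± 0.10.
The groups overlapped for the lamins too. LMNA, which encodes the A-type lamins, gave 15.19, 15.04 and 15.44 against 15.48, 15.16 and 15.61, and its second probe had a difference of 0.00 ± 0.16. LMNB1, a B-type lamin, gave 13.45, 13.45 and 13.13 against 13.63, 14.01 and 13.45. Its difference was 0.35 ± 0.18, the largest of the 7 probes, and 1 pre-miR-27a array reached no higher than the highest control. LMNB2, the other B-type lamin, gave 13.75, 13.55 and 13.46 against 13.79, 13.75 and 13.49. On the brightest probe of each lamin, every pre-miR-27a array was above the pre-control array of the same replicate number. This did not hold for the second LMNA probe. None of the 7 probes was called by limma, either in the main fit or with the replicate block.

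**Figure D1:**
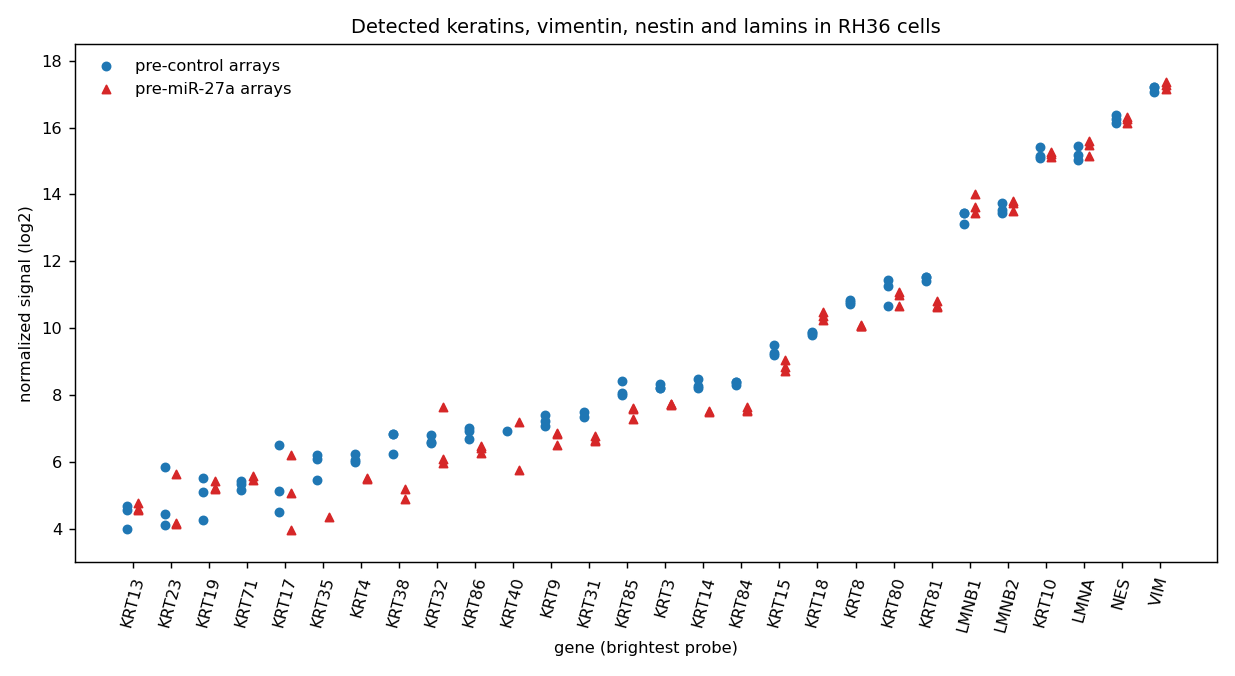
Normalized signal (log2) of each array on the brightest probe of every member well above background on all 3 arrays of at least 1 group, with pre-control arrays as circles and pre-miR-27a arrays as triangles. Genes are ordered by their pre-control mean for reading only; spots that were not found are missing, so KRT38 has 2 triangles, both below its 3 circles.

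The spot filter kept 57 of the 68 member probes, for 48 genes, and removed 11 probes that were not found on more than 1 array. Of the 57, limma called 11 at an adjusted p under 0.05 over all 36469 probes kept, against 7.83% of all probes. Lower in pre-miR-27a were 8 of them, against 3.88% of all probes, and 3 were higher, against 3.95%. The groups did not overlap for 17 member probes that were lower, against 17.8% of all probes, and for 4 that were higher, against 14.8%. Since the members were chosen with this contrast, nothing is read from these shares. With the replicate number as a block, 13 probes were lower, against 7.62% of all probes, and 4 higher, against 7.24%. The median difference was -0.07 over the 57 member probes, -0.25 over the 50 keratin probes and -0.02 over all probes.
Most calls were lost when an array was left out, on the whole array as among the members. Without pre-control replicate 1, 5 of the member probes were called, 4 of them among the 11, and 1276 of all probes against 2856 with all arrays. Without any other single array (pre-control replicate 2 or 3, or pre-miR-27a replicate 1, 2 or 3) 0 were called by limma, with 18 to 22 at an unadjusted p under 0.05, although all 11 probes kept their direction. Of all probes, 81 were then called without pre-control replicate 3 and 0 in the other 4 fits, where 7178 to 7686 had an unadjusted p under 0.05.

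KRT38, a type I keratin of the hair shaft, had the lowest difference of the 57 member probes. The brighter of its probes, at chr17:36846287-36846346 of hg18, gave 6.83, 6.82 and 6.23 in pre-control and 4.89 and 5.19 in pre-miR-27a replicates 1 and 2. The spot was not found on pre-miR-27a replicate 3, which therefore did not enter the fit. The pre-miR-27a arrays were all lower and the groups did not overlap, with a difference of -1.58 ± 0.24 (SE, n = 3 and 2). Of all 36469 probes, 83 (0.228%) had a difference this low or lower.
The signal was weak. The mean spot intensity was 305, 289 and 285 units on the pre-control arrays, over local backgrounds of 89.0, 86.0 and 97.0. On the pre-miR-27a arrays it was 97.4, 104.8 and 94.5 over 54.0, 53.5 and 49.0. Intensity and background were thus both lower on the second slide, and what the background contributed was not tested. The probe was well above background on all pre-control arrays and on 2 of the pre-miR-27a arrays. With normexp background correction the difference was -0.70, the setting that moved it furthest among those that kept the same probe; without the spot filter it was -1.80.
The second KRT38 probe, at chr17:36846327-36846386, shares 20 of its 60 positions with the first, and none of its spots passed the flag for signal well above background. Its mean spot intensity was 163, 175 and 181 units in pre-control and 69.0, 67.3 and 69.3 in pre-miR-27a. It gives no measure of KRT38, so the KRT38 difference rests on 1 probe.

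**Figure D2:**
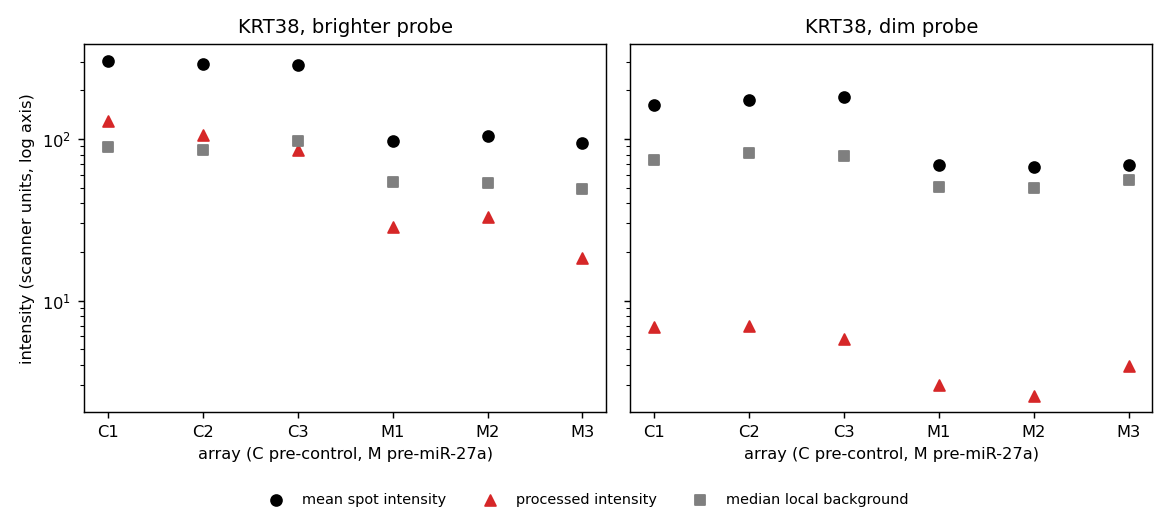
Intensity in scanner units (log axis) of the 2 KRT38 probes on the 3 pre-control (C) and 3 pre-miR-27a (M) arrays, as mean spot intensity, processed intensity and median local background. On the brighter probe all 3 quantities are lower on the M arrays, and the dim probe's mean intensity and local background are lower there as well.

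Of the type I hair keratins around KRT38, KRT31 and KRT35 were lower, KRT32 overlapped and most others lay near background. KRT31, another type I hair keratin, gave 7.35 and 7.50 in pre-control replicates 1 and 3 (replicate 2 was not found) and 6.65, 6.77 and 6.63 in pre-miR-27a, a difference of -0.74 ± 0.10 without overlap. KRT35 gave 6.21, 6.10 and 5.45 in pre-control and 4.35 in pre-miR-27a replicate 1, and its spot was not found on the other two. It was therefore removed by the filter, and over all spots its difference was -1.47. KRT32 overlapped, with 6.58, 6.81 and 6.61 against 7.64, 6.08 and 5.97, so that 1 pre-miR-27a array was above all controls.
KRT37, the gene whose promoter most resembles that of KRT38, stayed near background on all 6 arrays, as did KRT33A, KRT34 and KRT36. KRT34 was at -1.49 ± 0.35 (SE, n = 3 and 2) without overlap and was called lower with the replicate block. KRT37 was at -0.44 ± 0.28 without overlap, KRT33A at -0.32 ± 0.37 with overlap, and KRT36 was removed by the filter. At such signals these values are no measure of the genes. KRT33B was well above background on 2 pre-miR-27a arrays and on no other. KRT40 was well above background on 2 pre-control and 3 pre-miR-27a arrays but had several spots not found, and over all spots its difference was 0.27.
Type II hair keratins, the partners of these proteins, were measured more often. KRT81 gave 11.43, 11.55 and 11.53 against 10.81, 10.65 and 10.64, a difference of -0.80 ± 0.09. KRT84 gave 8.29, 8.40 and 8.40 against 7.65, 7.54 and 7.57, a difference of -0.77 ± 0.08. Neither gene's groups overlapped, and both probes passed the detection flag on each of the 6 arrays.
KRT85 (-0.67 ± 0.16) and KRT86 (-0.48 ± 0.12) did not overlap either. They were not called in the main fit but were called with the replicate block. A probe listed under KRTHB5, an older name of KRT85, had a difference of 0.08, but the array's annotation places it at position 102869326 of chromosome 12 (hg18), outside the keratin cluster and far from the KRT85 probe at 51040691, and it was not read as KRT85. KRT81 and KRT86 are close copies, and the array cannot be assumed to tell them apart. Of the hair keratin probes that passed the filter, 13 of 13 had negative differences, against 53.6% of all probes kept, and 4 were called lower, against 3.88%. Of the 13, 5 were well above background on no array, and nothing is read from these shares.

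**Figure D3:**
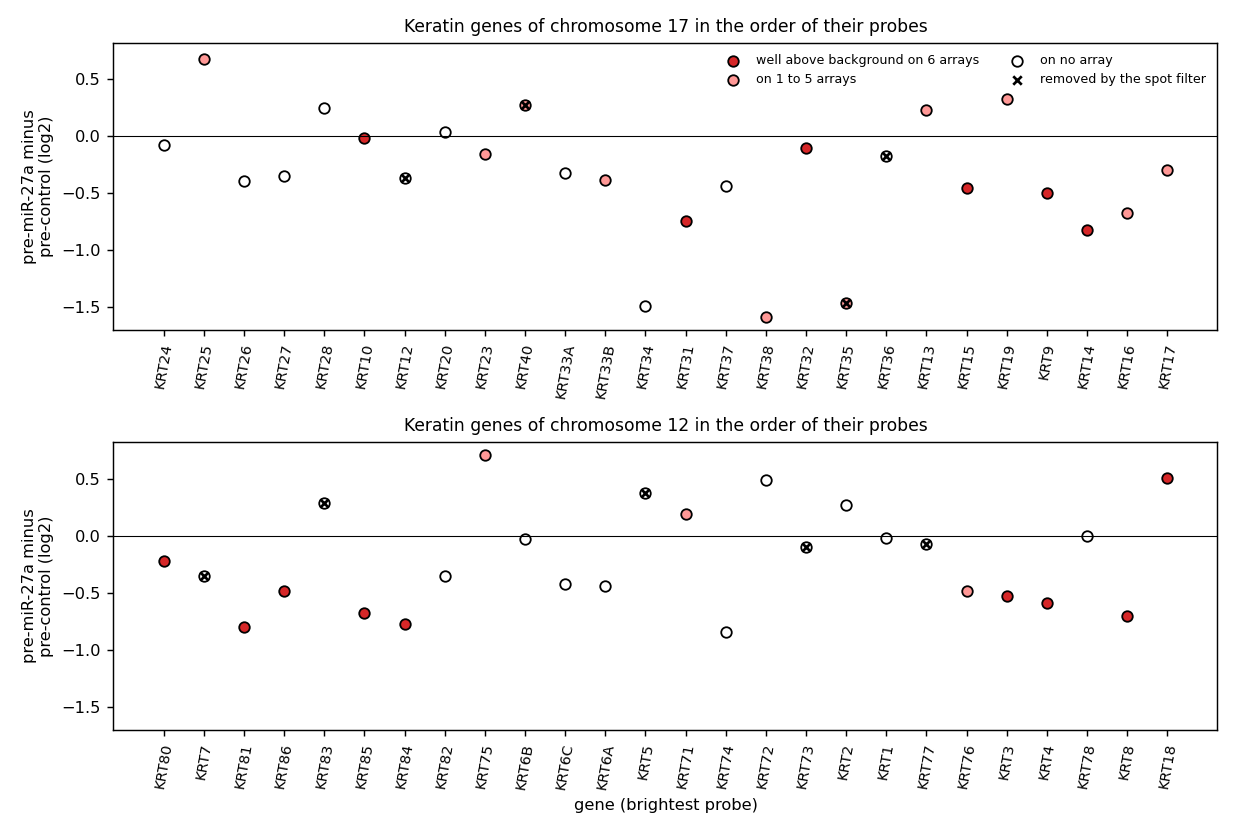
Difference (pre-miR-27a minus pre-control, log2) of the brightest probe of each keratin gene in the order along chromosomes 17 and 12. Filled, pale and open circles mark probes well above background on 6, 1 to 5 or no arrays, and crosses mark probes removed by the spot filter, drawn over all spots; KRT38 is the lowest point on chromosome 17.

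The partners KRT8 and KRT18, which together form the filaments of simple epithelia, differed in opposite directions. KRT8 gave 10.77, 10.85 and 10.72 in pre-control and 10.06, 10.07 and 10.10 in pre-miR-27a, a difference of -0.70 ± 0.07. KRT18 was higher on 3 probes, with 9.89, 9.86 and 9.81 against 10.25, 10.36 and 10.49 on the brightest. On these 3 probes and on KRT8 every pre-miR-27a array lay beyond all pre-control arrays.
The KRT18 differences were 0.51 ± 0.09, 0.78 ± 0.07 and 0.63 ± 0.11, and the remaining, dim probe had 0.21 ± 0.59. The second KRT8 probe was undetected by that flag on each array. Both genes have many processed pseudogenes, so their signals may be shared. Of 13 tested probes named for KRT18 pseudogenes, a list added with the values in view, all had positive differences (0.35 to 1.18). Of all probes kept, 53.6% had negative ones. Of the 13, 9 were called higher, against 3.95% of all probes. Of 9 tested probes named for KRT8 pseudogenes, 0 were called lower, against 3.88% of all probes, and 1, KRT8P24, was called higher. That probe was well above background on only 1 array, and limma with the replicate block did not call it (adjusted p = 0.0825). The other simple epithelial keratins KRT19, KRT20 and KRT23 had overlapping groups, with KRT20 well above background on no array and KRT7 removed by the filter.

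**Figure D4:**
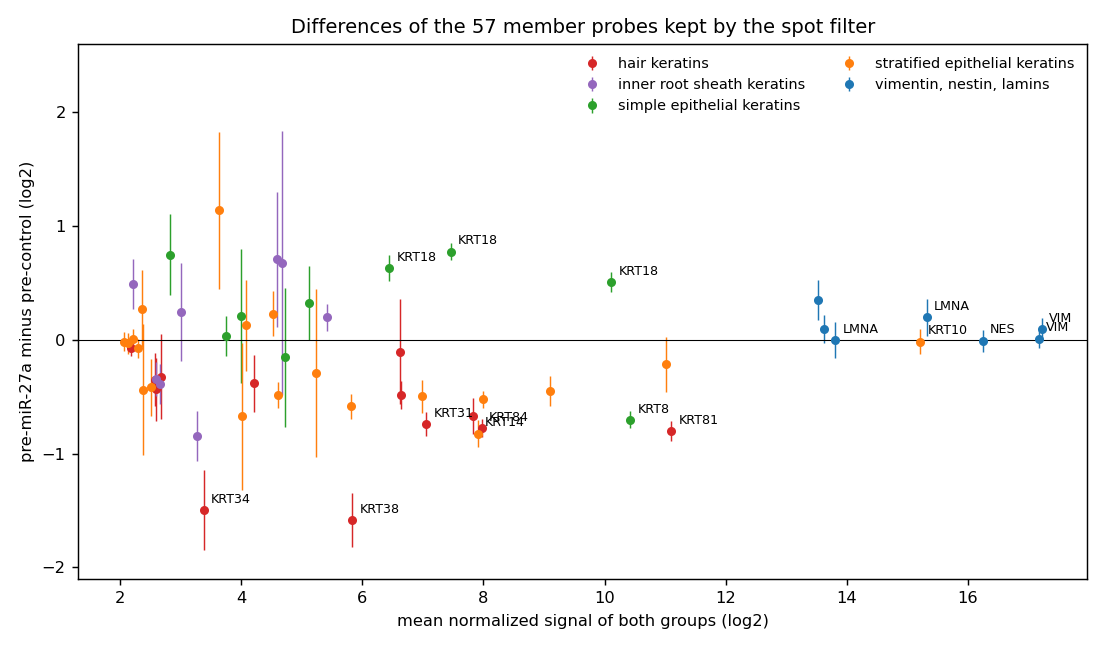
Difference (pre-miR-27a minus pre-control, log2; bars are the limma SE) against the mean normalized signal of both groups (log2) for the 57 member probes kept by the spot filter, coloured by class. KRT38 lies at -1.58, KRT18 above 0 on 3 labelled probes and KRT8 below 0, while VIM, NES and LMNA lie near 0.

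Among the keratins of stratified epithelia, KRT14, KRT3 and KRT4 were lower. KRT14, the type I keratin of basal epidermal cells, gave 8.29, 8.48 and 8.20 in pre-control and 7.49 and 7.51 in pre-miR-27a replicates 1 and 2, a difference of -0.82 ± 0.12. KRT3, a keratin of the corneal epithelium, gave 8.21, 8.34 and 8.21 against 7.74, 7.70 and 7.74, a difference of -0.52 ± 0.08. KRT4, a keratin of mucosal epithelia, gave 6.00, 6.23 and 6.07 against 5.50 and 5.54, a difference of -0.59 ± 0.11, which was not called with the replicate block and was -0.08 with normexp background correction. The groups did not overlap for any of these genes. A second KRT14 probe, well above background on only 1 array, was at 1.14 ± 0.69 with overlapping groups and was called higher with the replicate block. KRT14 resembles KRT16 and KRT17 closely, so its signal may be shared.
KRT9, a keratin of palm and sole skin, gave -0.50 ± 0.15 (-0.17 with normexp), and KRT15, a basal keratin, gave -0.45 ± 0.13. The groups overlapped for neither gene, and both were called with the replicate block but not in the main fit. KRT10, the type I keratin of differentiating epidermis, gave 15.41, 15.09 and 15.16 against 15.28, 15.13 and 15.21, a difference of -0.02 ± 0.11 with overlap. KRT80 overlapped too, with 11.45, 11.27 and 10.66 against 10.98, 11.09 and 10.66. KRT5, the usual type II partner of KRT14, was well above background on no array, as were KRT1 and KRT2, the type II partners of KRT10 in epidermis.
None of the 9 probes grouped here as inner root sheath keratins, of layers around the hair shaft, was well above background on all arrays. Of the 8 that passed the filter, none was called by limma, and KRT74, near background on all arrays, was called lower with the replicate block. KRT71 came nearest, on 5 of 6 arrays, with a difference of 0.20 ± 0.12.

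Genes around the filaments were taken from lists of related genes, again with earlier results known. Their adjusted p-values are from limma over all 36469 probes. The keratin associated proteins, which cross-link hair keratins, had 40 probes tested: 9 were lower, against 3.88% of all probes, and 0 higher, against 3.95%. At an unadjusted p under 0.05, limma gave 13 lower and 1 higher, against 9037 of all 36469 probes in either direction. Their median difference was -0.27, and 23 of the list's 52 probes were well above background on no array. KRTAP11-1 differed by -1.11 ± 0.16 (SE, adjusted p = 0.0219) and KRTAP4-14 by -1.02 ± 0.12 (adjusted p = 0.0181). KRTAP2-1, KRTAP4-12, KRTAP2-4 and KRTAP5-8 differed by -0.85, -0.80, -0.74 and -0.62, with adjusted p-values of 0.0195, 0.0199, 0.0184 and 0.0388. With normexp KRTAP11-1 was at -0.53, and KRTAP4-12, at -0.36, was no longer called (adjusted p = 0.062 by limma). KRTAP4-10 was lower on 1 probe (-0.60), while its other probe, well above background on 2 pre-miR-27a arrays and no pre-control array, was at 1.83 without overlap (adjusted p = 0.108). KRTAP2-4 was lower on 3 probes. Genes of this family are near copies of each other, so the probes may measure the same RNAs.
Other filament proteins did not move together, with 1 of 14 probes called, against 7.83% of all probes. Desmin (DES), the muscle filament, had a pre-control mean of 15.60 and a difference of -0.01 ± 0.31 (adjusted p = 0.985). Replicates 1, 2 and 3 gave 15.60, 15.17 and 16.04 in pre-control and 15.65, 15.10 and 16.02 in pre-miR-27a. The SE took no account of the replicate numbers and so includes the spread between replicates. NEFM, a neurofilament, fell by 0.84 on 1 probe (adjusted p = 0.0301) while its other probe had 0.72 (adjusted p = 0.115). The call was lost with the replicate block (adjusted p = 0.0543), and the difference was -0.55 with normexp. With that block limma called 1 other probe of this list higher and 1 lower, against 7.24% and 7.62% of all probes. They were SYNC1 at 0.42 with overlap (adjusted p = 0.0493) and INA at -0.29 without overlap (adjusted p = 0.0488). Synemin, listed under its older name DMN, had a pre-control mean of 11.35 and a difference of 0.20 (adjusted p = 0.636).
Plakins tie filaments to junctions. Of 25 plakin and desmosome probes, 1 was called higher and 1 lower, against 3.95% and 3.88% of all probes. With the replicate block limma called 2 higher and 4 lower, against 7.24% and 7.62%. PKP1 had the list's lowest difference, -1.75 ± 0.42 without overlap (adjusted p = 0.0663, or 0.0476 with the block). It was well above background on only 1 array. The brighter EPPK1 probe was at -0.79 with overlap (adjusted p = 0.124, or 0.0461 with the block), and the other was at -0.51 and not called. DST, a plakin gene, was higher by 1.43 ± 0.26 on 1 probe (adjusted p = 0.0361), while its other 3 tested probes had 0.03 to 0.17. The filter removed a DST probe at 1.60 over all spots and another, well above background on no array, at 0.16. EVPL, envoplakin of the epidermal cell envelope, fell by 0.84 ± 0.07 (adjusted p = 0.0176). Plectin (PLEC1 on the array) had a difference of -0.43 (adjusted p = 0.145, and 0.0375 with the replicate block), while a dim probe, well above background on 2 pre-miR-27a arrays and no pre-control array, differed by 1.19 (adjusted p = 0.0955, or 0.0334 under the replicate block). The remaining probe was at 0.51 (adjusted p = 0.278).
Of 30 probes for partners of the lamina, 1 was called higher, against 3.95% of all probes. It was a probe of SYNE2, a nesprin of the nuclear envelope, at 1.098 ± 0.22 (adjusted p = 0.0414). The other 4 SYNE2 probes had 0.41 to 1.33 and were not called. With the replicate block limma called 1 of these 4, at 0.88 (adjusted p = 0.0348). Over the whole list that fit called 4 probes higher and 0 lower, against 7.24% and 7.62% of all probes. They included SUN2 (listed as UNC84B) at 0.68 (adjusted p = 0.0354) and 1 FNTA probe at 0.54 (adjusted p = 0.0434). The other FNTA probe was at -0.05 and not called. None of 8 probes for regulators of hair and epidermal keratins was called by limma. At an unadjusted p under 0.05, 2 were lower, against 9037 of all 36469 probes in either direction. With the replicate block 2 were called lower, against 7.62% of all probes. These related genes lost all calls in every fit without 1 array except the fit without pre-control replicate 1, in which 8 probes were called against 13 with all arrays.

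**Figure D5:**
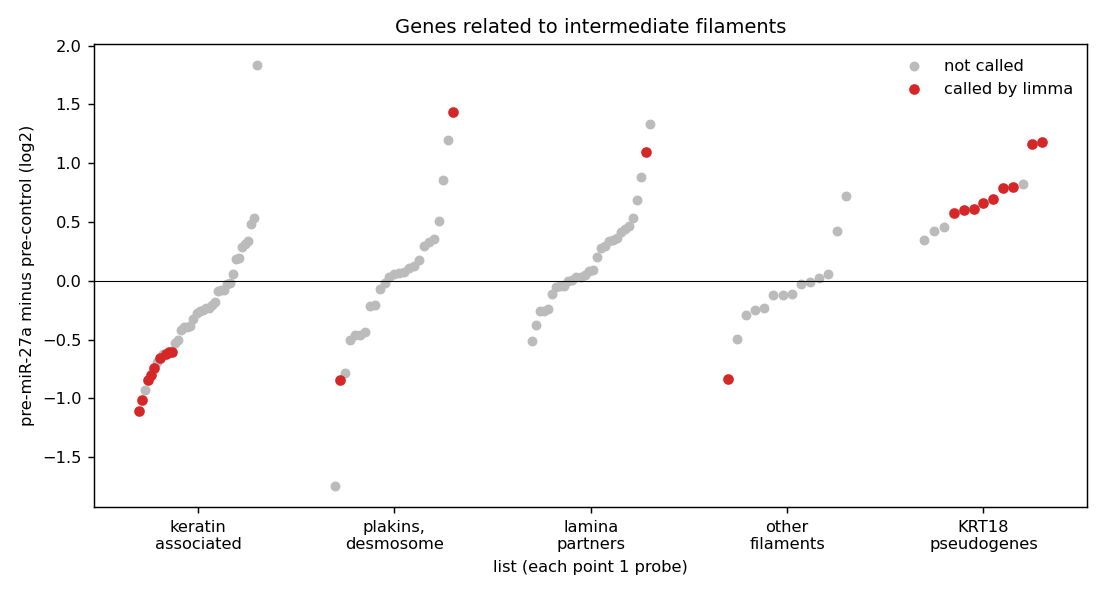
Difference (pre-miR-27a minus pre-control, log2) of each probe tested in 4 lists of related genes and of the KRT18 pseudogenes, sorted within each list; red points were called by limma. The 9 called keratin associated protein probes are all below 0, and the 13 KRT18 pseudogene probes are all above 0.

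Markers of other cells were read beside these values, because in a bulk sample fewer cells of a type and less RNA per cell cannot be told apart. Of 14 epithelial marker probes, 7 passed the detection flag on each array, those of CDH3, CLDN3, CLDN4, CLDN7, ESRP2 (listed as RBM35B) and ST14. CDH1, EPCAM (listed as TACSTD1), GRHL2 and OVOL1 were well above background on no array. ESRP1 (listed as RBM35A) was so on 2 pre-control and 3 pre-miR-27a arrays, and ELF3 on 1 pre-miR-27a array. Of the 11 epithelial probes tested, 0 were called by limma, against 7.83% of all probes. At an unadjusted p under 0.05, 3 were lower, against 9037 of all 36469 probes in either direction. CDH3 had the lowest difference, -1.33 (adjusted p = 0.051). Of 18 myogenic marker probes, 16 passed the detection flag on each array, including those of MYOD1, MYOG, DES and MYH3. MYF5 was well above background on no array, and 1 PAX3 probe on 1 pre-control and 3 pre-miR-27a arrays. The second probe of CHRNA1 was called, 0.95 higher (adjusted p = 0.0216). At an unadjusted p under 0.05 limma gave 2 higher and 4 lower, to be set beside the same 9037 of all 36469 probes. With the replicate block 4 myogenic probes were called lower by limma, against 7.62% of all probes. They were MYOG on both probes (-0.95 and -0.96, adjusted p = 0.0334 for each), MYOD1 (-0.45, adjusted p = 0.0363) and CDH15 (-0.35, adjusted p = 0.0457). The part of these differences in those of the filament genes was not tested.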

How the data were processed

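Total RNA of 6 cultures was labelled and read on 1-colour arrays (hg18 design). The authors used Feature Extraction 10.5.1.1, which gave the deposited spot intensity values (background-subtracted processed signal, mean signal, local background) and 0 or 1 flags. They also deposited a log2 table, quantile normalized and filtered, which was used as an alternative.

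From the processed intensities, quantile-normalized log2 values were computed over non-control spots, values of spots that were not found were left out, spots of a probe were averaged and probes missing on more than 1 array were removed. Groups were compared with limma 3.58.1 (R 4.3.3) and Benjamini-Hochberg adjustment at 0.05, tested on simulated data. Exact permutation of 3 against 3 arrays cannot go below p = 0.10. Replicate numbers paired the arrays: deviations of same-numbered arrays correlated at 0.40, 0.46 and 0.41, those of others at -0.27 to -0.12. The main fit, its SE and the fits without 1 array took no account of this pairing. The members and lists were chosen with earlier results of these data known. Named genes were the type I hair keratins, the non-keratin members, keratins well above background on all arrays of a group, called members, DES, plectin, up to 8 called related genes per direction, and detected markers. Genes of the filament, plakin and lamina lists called only with the replicate block were added to them. Genes with several probes were given by the brightest. The keratin associated, filament, plakin, lamina, regulator and marker lists were fixed by name, and all 57 member names matched RefSeq. Alternatives were 75th percentile scaling, normexp (offset 50), other filters, the replicate block, the deposited table, a variance trend and leaving out each array.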

Additional observations from a re-analysis of the deposited data

How the results depend on the processing

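All 11 member probes called by limma kept their direction under every alternative tried on them. With 75th percentile scaling, 17 member probes were called, 14 of them lower, and the groups did not overlap for 33, while 3256 of all probes were called and their median difference was -0.09. With the replicate block, 17 were called, 13 of them lower, as were 23 probes of the related lists and 5421 of all probes. From the deposited log2 values, 20 related probes were called. Leaving out 1 array in turn gave 0 to 5 member probes called, 0 to 2 higher, 0 to 3 lower and 0 to 8 related probes, and 22 to 32 without overlap. With the flag for positive and significant signal, 41 member probes were detected on all pre-control arrays. The KRT38 difference was -0.70 with normexp and -0.83 as the mean of its probes, and -1.43 to -1.78 without 1 array. As a mean over probes, KRT8 reversed to 0.021 and KRT14 to 0.16, because the dim second probes were included. DES, at -0.01, reversed to 0.013 with normexp. It lay between -0.23 and 0.23 when 1 array was left out, with 0.20 without pre-control replicate 3. Those fits took no account of the replicate numbers and left 1 array without its pair, so this range includes the spread between replicates. For 29 named members, 184 of 203 values under the alternatives stayed within the main spread, and the cause of the other changes was not tested. Signal near background limits KRT38, KRT35 and KRT4.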
